A study of Homo sapiens with 12 samples.

Results

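The genes described here are the zinc finger genes named ZNF with a number that were expressed in T47D-MTVL breast cancer cells. A gene was taken when a probe set that carries its symbol alone had a mean log2 intensity of 6.0 or more over all 12 arrays, and a gene with several such probe sets is given by the brightest. Of 464 ZNF genes measured by a probe set with 1 symbol, 46 passed. They were thus selected on their mean intensity over all arrays and on no difference between groups, so the groups can be compared. A gene could still pass through the groups in which it was high. T47D-MTVL cells come from a human breast tumour, are positive for the progesterone receptor and carry 1 stably integrated luciferase reporter driven by the MMTV promoter. Cells were transfected with an siRNA against the chromatin remodeler CHD8 (siCHD8) or with a control siRNA (siCt). They were then held without serum for 48 h and given 10 nM of the synthetic progestin R5020 or the ethanol vehicle (EtOH) for 6 h. The 4 groups were siCHD8 with R5020, siCHD8 with EtOH, siCt with R5020 and siCt with EtOH, with 3 arrays each. The arrays of a group are labelled as biological replicates, but nothing says whether they came from separate cultures, and p-values measure the spread between these arrays. The study asked how far the progestin response depends on CHD8, and the question here is how this gene family moved with hormone and with knockdown.

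ZNF genes encode proteins with C2H2 zinc fingers, short loops held by a zinc ion that read bases of DNA and, in some members, RNA. The largest class in humans carries a KRAB domain, which recruits the corepressor TRIM28 and, through it, the histone methyltransferase SETDB1 and HP1 proteins, and many KRAB genes sit in tandem clusters on chromosome 19. Other ZNF proteins have no KRAB domain and work as partners of chromatin complexes, among them several with known roles in breast epithelium. Neighbours in a cluster are close copies, so a probe set may read more than one of them.

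The targeted gene was lower in the knockdown arrays. For CHD8 (probe set 7977693) the log2 intensities were 4.77, 4.62 and 4.81 in siCHD8 with R5020, against 5.52, 5.24 and 5.29 in siCt with R5020. With EtOH it had 5.42, 5.11 and 5.04 in siCHD8, against 5.70, 5.71 and 5.91 in siCt. In each treatment all 3 siCHD8 arrays lay below all 3 siCt arrays, by -0.62 with R5020 (adjusted p = 0.0627 from limma) and by -0.58 with EtOH (adjusted p = 0.0711). Neither passed 0.05 over all 21214 probe sets tested. The siCHD8 signal was 65.3% of that of siCt with R5020 and 66.9% with EtOH. CHD8 was also lower with R5020 than with EtOH, which passed. This change was -0.46 in siCHD8 (adjusted p = 0.0258 from limma) and -0.42 in siCt (adjusted p = 0.0349). The siCt R5020 arrays overlapped the siCHD8 EtOH arrays. Of the luminal epithelial markers, 9 of 9 had means between 6.95 and 11.1. With R5020, 6 of these 9 were called lower in siCHD8 and 5 in siCt, with a median change of -0.565 in each, and their part in the hormone shifts of the ZNF genes was not tested. The 13 measured markers of fibroblasts, blood, endothelium and basal cells had means of 5.48 or less, with the leukocyte marker PTPRC at 1.16. Array medians lay between 4.52 and 4.62. siCt EtOH replicate 3 stood apart for several members, and many of the values it moved are also given without it.

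The 46 genes had means between 6.00 and 8.70. Just above the limit were ZNF142 (6.00), ZNF800 (6.01) and ZNF623 (6.02), and just below it ZNF292 (5.99), ZNF768 (5.98) and ZNF451 (5.96). In 15 of the 46 the mean of at least 1 group was below 6.0, and no gene passed through 1 group alone. ZNF57 was below 6.0 on every EtOH array and above it on every R5020 array, so it passed through its R5020 groups. The chromosome, taken from RefSeq, is 19 for 13 of them and another for 33. The 5 brightest probe sets were those of ZNF257, ZNF207, ZNF626, ZNF462 and ZNF703, though probe sets differ in how well they bind and the order says nothing of RNA amounts. ZNF207 (BuGZ), which binds spindle microtubules and the checkpoint protein BUB3, and ZNF462, a chromatin regulator of development, ranged over the 12 arrays from 8.34 to 8.70 and from 8.13 to 8.78. ZNF257, ZNF493 and ZNF75A each had a second probe set below 6.0, which was not used. Its mean was 1.30 for ZNF257, 4.53 for ZNF493 and 4.16 for ZNF75A. The probe sets of ZNF257 were thus far apart, with 8.70 for the one used, and which of them reads its RNA was not tested. The second probe set of ZNF493 changed with R5020 by -0.40 in siCHD8 and -0.11 in siCt, beside -0.49 and 0.07 for the one used. A second probe set of ZNF718 gave the same 12 values as the first.

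R5020 moved individual genes of the family in both directions, and the median member changed little. At an adjusted p under 0.05 over all 21214 probe sets tested, 4 members were higher and 6 lower with R5020 in siCHD8 cells, and 5 were higher and 5 lower in siCt cells. These are 8.7% and 13% of the members in siCHD8, and 10.9% each way in siCt. Both higher counts include ZNF57, which passed the level limit through its R5020 groups. In siCHD8, 6.04% of all probe sets tested were called higher and 5.43% lower; of the 6289 with a mean of 6.0 or more, the level at which members were taken, it was 12.2% higher and 8.08% lower. In siCt it was 8.10% higher and 6.00% lower over all, and 15.8% higher and 8.24% lower among those with a mean of 6.0 or more. Against the brighter background the members had fewer calls upward and more downward in both, differences of a few genes that were not tested. The median log2 change of the members was -0.11 in siCHD8, against 0.00 for all probe sets with a mean of 6.0 or more, and 0.01 in siCt, against 0.05.

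**Figure D1:**
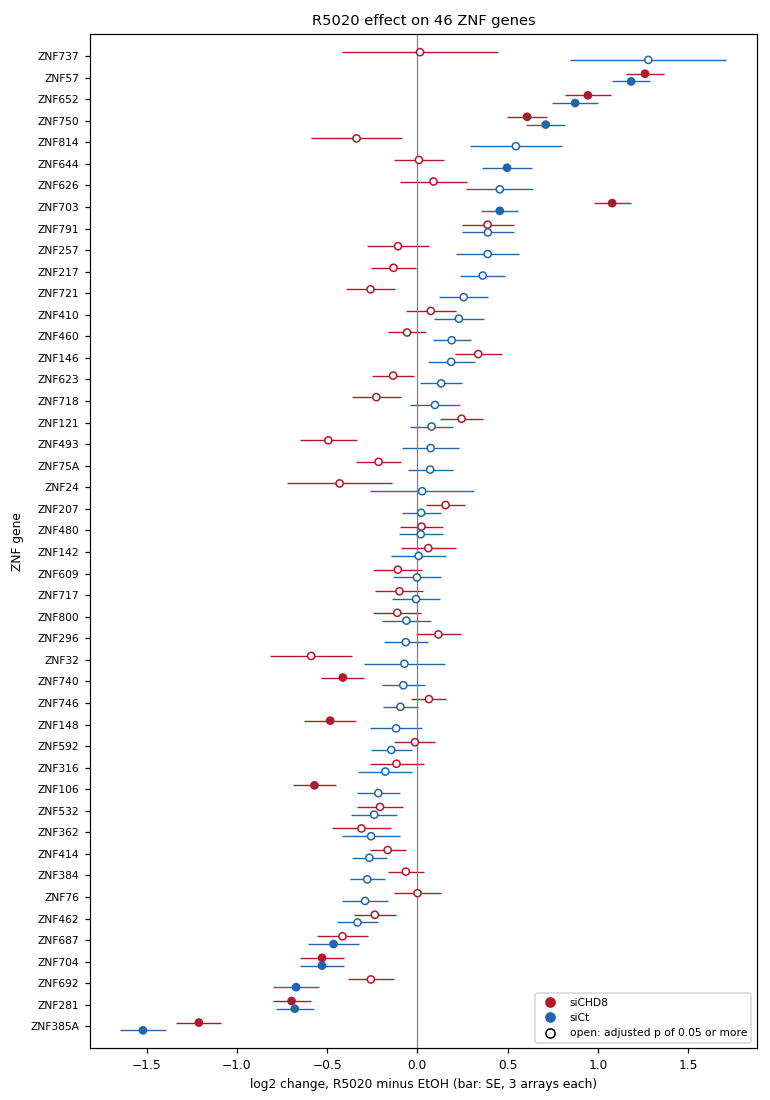
Log2 change with R5020 (R5020 minus EtOH, horizontal axis) of each of the 46 ZNF genes (rows, ordered by the change in siCt), in siCHD8 cells (red) and siCt cells (blue). Bars are the standard error of 3 arrays against 3 and filled points have an adjusted p under 0.05; changes run from -1.52 (ZNF385A in siCt) to 1.28 (ZNF737 in siCt, not called), and most points lie near 0.

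In all, 13 members were called in at least 1 of the 2 cell states and 33 in neither. Of the 13, 7 were called in both and in the same direction. ZNF57, ZNF652, ZNF750 and ZNF703 rose, and ZNF385A, ZNF281 and ZNF704 fell. The changes of the 46 members in siCHD8 and in siCt, which come from different arrays, had a Pearson's r of 0.718 across genes, against 0.839 across all probe sets with a mean of 6.0 or more. Genes are not independent replicates, so this is a description. The RNA came from whole cultures, and fewer expressing cells cannot be told apart from less RNA per cell.

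ZNF57, a C2H2 gene on the short arm of chromosome 19, had the largest called rise. Its EtOH arrays were all below 6.0, so it is a member only through the R5020 groups in which it was high. It had log2 intensities of 7.07, 6.80 and 6.95 in siCHD8 with R5020, against 5.73, 5.63 and 5.68 in siCHD8 with EtOH. The siCt arrays gave 6.83, 6.92 and 6.74 with R5020, against 5.59, 5.70 and 5.64 with EtOH. All 6 R5020 arrays thus lay more than 1 log2 unit above all 6 EtOH arrays, and within each treatment the siCHD8 and siCt arrays overlapped. The change was 1.26 in siCHD8 (2.4-fold, SE 0.10, adjusted p = 7.51e-07 from limma) and 1.18 in siCt (2.27-fold, SE 0.10, adjusted p = 1.29e-06), and the difference between them was 0.08 (95% interval -0.24 to 0.39). A promoter window of this gene is shown because it belongs to the member with the largest called rise. It spans 300 bases, from 250 before to 50 after the annotated start, from RefSeq GRCh38.p14, chr19:2900678-2900977, plus strand. Capitals mark CCAAT boxes, searched on both strands.
ZNF57 promoter: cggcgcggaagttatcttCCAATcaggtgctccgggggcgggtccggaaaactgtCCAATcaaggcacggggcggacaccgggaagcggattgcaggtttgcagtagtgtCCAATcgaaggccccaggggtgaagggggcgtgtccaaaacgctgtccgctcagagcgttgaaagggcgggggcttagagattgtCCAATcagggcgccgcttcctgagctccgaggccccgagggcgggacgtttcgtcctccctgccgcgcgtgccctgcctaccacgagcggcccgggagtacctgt
It holds 4 CCAAT boxes. At least 2 were found in 11.8% of the 51 member windows and in 10.8% of the 35116 windows of all genes in the table, so several boxes are not particular to this family. The arrays do not show which of the 2 annotated starts of ZNF57 was used.

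ZNF652, a DNA-binding partner of the corepressor CBFA2T3, had the second largest called rise in siCt and the third in siCHD8. In siCHD8 it had 7.68, 7.54 and 7.60 with R5020, against 6.88, 6.68 and 6.42 with EtOH, and in siCt 7.88, 7.85 and 7.67 with R5020, against 6.85, 6.84 and 7.09 with EtOH. The R5020 arrays were above the EtOH arrays throughout, by 0.94 in siCHD8 (SE 0.13, adjusted p = 0.000109 from limma) and 0.87 in siCt (SE 0.13, adjusted p = 0.000184). ZNF750, a regulator of terminal epidermal differentiation, had 6.56, 6.84 and 6.70 with R5020, against 6.16, 6.10 and 6.01 with EtOH, in siCHD8. Those of siCt gave 6.97, 6.87 and 6.84 with R5020, against 6.32, 6.17 and 6.07 with EtOH. The groups did not overlap in either, and the change was 0.61 in siCHD8 (adjusted p = 0.00146 from limma) and 0.71 in siCt (adjusted p = 0.000312).

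ZNF703, an amplified oncogene of luminal B breast tumours that acts as a transcriptional corepressor, rose in both cell states but by different amounts. In siCHD8 it had 7.94, 7.85 and 7.97 with R5020, against 6.78, 6.86 and 6.87 with EtOH. The siCt values were 7.92, 7.71 and 7.83 with R5020, against 7.25, 7.36 and 7.48 with EtOH. The R5020 arrays of siCHD8 and siCt overlapped, and the EtOH arrays of siCHD8 lay below every EtOH array of siCt. The change was 1.08 in siCHD8 (2.11-fold, SE 0.10, adjusted p = 3.19e-06 from limma) and 0.46 in siCt (1.37-fold, SE 0.10, adjusted p = 0.007). The siCHD8 change exceeded the siCt change by 0.62 (95% interval 0.31 to 0.93). This had an unadjusted p of 0.000691 and did not pass over all probe sets (adjusted p = 0.49).

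ZNF644, which recruits the H3K9 methyltransferases G9a and GLP together with WIZ, was called in siCt alone. It had 6.09, 6.30 and 6.04 with R5020, against 6.43, 5.92 and 6.06 with EtOH, in siCHD8, and these overlapped. In siCt it had 6.36, 6.37 and 6.51 with R5020, against 5.86, 6.14 and 5.76 with EtOH, with no overlap. The change was 0.01 in siCHD8 (adjusted p = 0.986 from limma) and 0.50 in siCt (SE 0.14, adjusted p = 0.0281). The difference was -0.49 (95% interval -0.91 to -0.06, unadjusted p = 0.0273, adjusted p = 0.506). The call in siCt was lost without siCt R5020 replicate 1, 2 or 3 (adjusted p = 0.0597, 0.0578 and 0.111) and without siCt EtOH replicate 1 or 3 (adjusted p = 0.0834 and 0.106), and with all 33297 probe sets tested (adjusted p = 0.065).

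**Figure D2:**
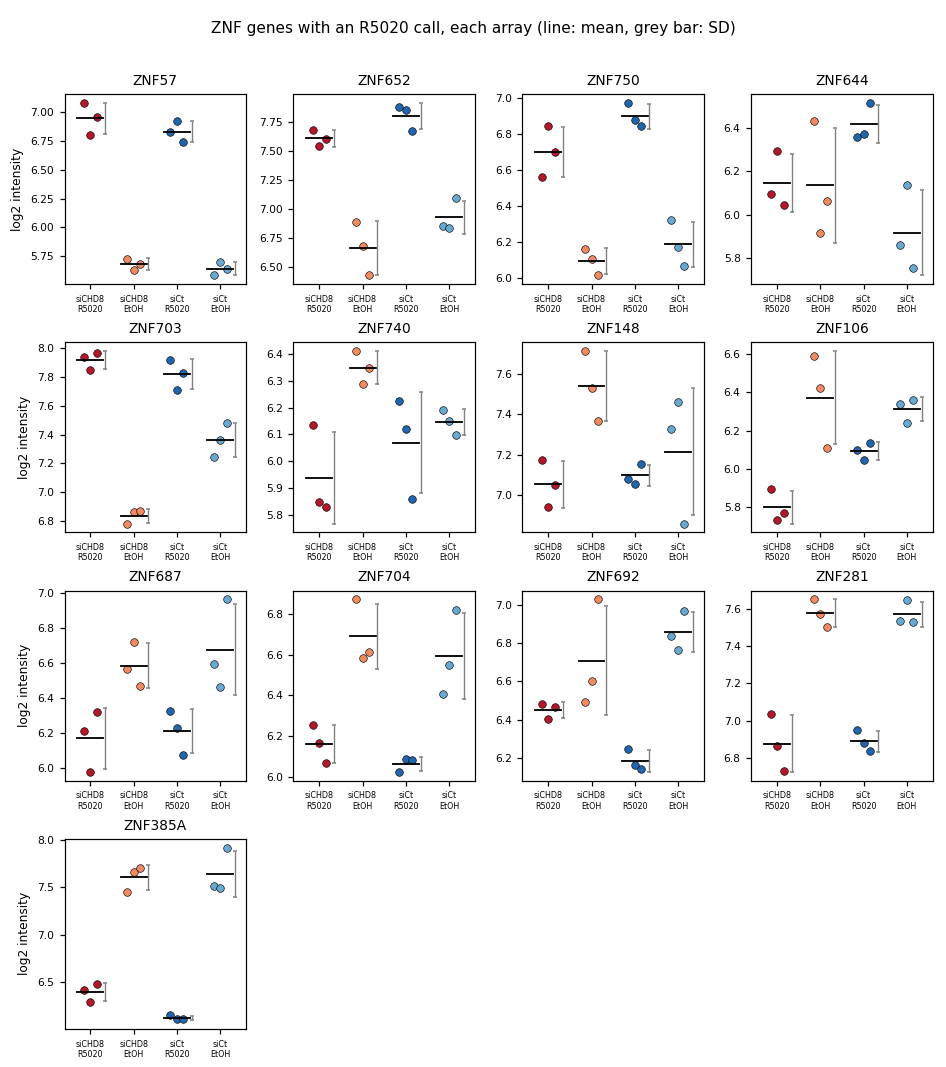
Log2 intensity (vertical axis, scaled for each gene) on each array of the 13 ZNF genes called for R5020 in siCHD8 or siCt, ordered by the change in siCt. Each dot is 1 array, the black line the mean and the grey bar the SD of 3 arrays; ZNF57 sits above 6.7 on every R5020 array and below 5.8 on every EtOH array, and ZNF385A shows the opposite order.

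ZNF385A (HZF), an RNA-binding protein and p53 cofactor, had the largest fall. It had 6.42, 6.29 and 6.48 in siCHD8 with R5020, against 7.46, 7.67 and 7.70 in siCHD8 with EtOH. The siCt arrays read 6.15, 6.11 and 6.11 with R5020, against 7.52, 7.49 and 7.92 with EtOH. Every R5020 array lay about 1 log2 unit or more below the EtOH arrays of its cell state, and the siCt R5020 arrays were the lowest. Its signal with R5020 was 43.2% of that with EtOH in siCHD8 (log2 change -1.21, SE 0.13, adjusted p = 7.59e-06 from limma) and 34.9% in siCt (log2 change -1.52, SE 0.13, adjusted p = 6.53e-07). The siCHD8 change minus the siCt change came to 0.31 (95% interval -0.07 to 0.69), with an unadjusted p of 0.101. Without siCt EtOH replicate 3, its highest array, the change in siCt was -1.38 and the difference 0.17.

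ZNF281, a repressor linked to pluripotency and to the epithelial-mesenchymal transition, fell by the same size in both. In siCHD8 it had 7.03, 6.87 and 6.73 with R5020, against 7.65, 7.57 and 7.50 with EtOH, and in siCt 6.95, 6.88 and 6.84 with R5020, against 7.54, 7.64 and 7.53 with EtOH. The 2 treatments were clear of each other, and within each the siCHD8 and siCt arrays overlapped. The changes were -0.70 in siCHD8 (adjusted p = 0.000321 from limma) and -0.68 in siCt (adjusted p = 0.000336), with a difference of -0.02 (95% interval -0.34 to 0.30). Its paralog ZNF148 (ZBP-89), which binds GC-rich promoters, had 7.17, 6.94 and 7.05 with R5020, against 7.71, 7.53 and 7.37 with EtOH, in siCHD8. In siCt it had 7.08, 7.06 and 7.15 with R5020, against 7.33, 7.46 and 6.86 with EtOH. The treatments separated in siCHD8 and overlapped in siCt through siCt EtOH replicate 3, which held the lowest value of its group. The changes were -0.48 in siCHD8 (adjusted p = 0.0425) and -0.12 in siCt (adjusted p = 0.641), or -0.30 in siCt without that array (adjusted p = 0.157). The siCHD8 call was lost without siCHD8 R5020 replicate 1, 2 or 3, siCHD8 EtOH replicate 1 or 2, or siCt R5020 replicate 1, 2 or 3, at adjusted p between 0.0563 and 0.159.

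ZNF704 fell in both cell states. It had 6.25, 6.17 and 6.07 with R5020, against 6.87, 6.59 and 6.61 with EtOH, in siCHD8, and 6.02, 6.09 and 6.08 with R5020, against 6.41, 6.55 and 6.82 with EtOH, in siCt. There was no overlap in either, and both changes were -0.53 (adjusted p = 0.00976 in siCHD8 and 0.00849 in siCt from limma). The siCHD8 call was lost without siCHD8 R5020 replicate 3 (adjusted p = 0.0515). ZNF692, a factor that binds an AICAR-responsive element and lowers gluconeogenic gene expression, had 6.48, 6.40 and 6.47 with R5020, against 6.49, 6.60 and 7.03 with EtOH, in siCHD8. Values in siCt were 6.25, 6.16 and 6.14 with R5020, against 6.84, 6.76 and 6.97 with EtOH. Its arrays were clearly apart in siCt and nearly touched in siCHD8. The change was -0.26 in siCHD8 (adjusted p = 0.259) and -0.67 in siCt (adjusted p = 0.00199), and the difference was 0.41 (95% interval 0.03 to 0.80, unadjusted p = 0.0377, adjusted p = 0.51). It was 0.36 without siCt EtOH replicate 3 (unadjusted p = 0.0787 from limma).

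ZNF687, ZNF592 and ZNF532 encode related proteins that join the chromatin reader ZMYND8 in 1 complex. ZNF687 had 6.21, 5.98 and 6.32 with R5020, against 6.57, 6.72 and 6.47 with EtOH, in siCHD8, and 6.33, 6.23 and 6.08 with R5020, against 6.60, 6.46 and 6.97 with EtOH, in siCt. The R5020 arrays were the lower ones in both, by -0.41 in siCHD8 (adjusted p = 0.075 from limma) and by -0.46 in siCt (adjusted p = 0.0382). The siCt call was lost without siCHD8 R5020 replicate 1, any siCt R5020 array, or siCt EtOH replicate 1 or 3 (adjusted p between 0.0513 and 0.153). Without siCt EtOH replicate 3 the change in siCt was -0.32, and that in siCHD8 passed (adjusted p = 0.0332). ZNF592 had changes of -0.01 in siCHD8 and -0.14 in siCt, and ZNF532 of -0.21 and -0.24, none of them called. Those in siCt, with siCt EtOH replicate 3 left out, were -0.05 for ZNF592 and -0.14 for ZNF532.

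ZNF106 and ZNF740 were called in siCHD8 only. ZNF106, an RNA-binding protein whose loss in mice damages motor neurons, had 5.90, 5.73 and 5.77 with R5020, against 6.59, 6.42 and 6.11 with EtOH, in siCHD8. Values in siCt cells were 6.10, 6.05 and 6.14 with R5020, against 6.34, 6.24 and 6.36 with EtOH. R5020 arrays were lower than EtOH arrays in both, by -0.57 in siCHD8 (SE 0.12, adjusted p = 0.0049 from limma) and -0.22 in siCt (adjusted p = 0.258). The difference of -0.35 (95% interval -0.72 to 0.01) had an unadjusted p of 0.055. ZNF740 had 6.13, 5.85 and 5.83 with R5020, against 6.41, 6.29 and 6.35 with EtOH, in siCHD8, with no overlap, and its groups overlapped in siCt. Its changes were -0.41 in siCHD8 (adjusted p = 0.0354) and -0.08 in siCt (adjusted p = 0.716). The siCHD8 call of ZNF740 was lost without siCHD8 R5020 replicate 2 or 3 or any siCHD8 EtOH array (adjusted p between 0.0592 and 0.149).

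The promoters of ZNF644 and ZNF106 are shown because they belong to hormone-called members and hold TGTTCT, the hexamer that steroid receptors bind in pairs. It was found on either strand in 3 of the 51 member windows (5.88%) and in 14.8% of all windows of this length. Of the 15 windows of hormone-called members 2 held it (13.3%), so it was no more frequent there than in all windows. The table of RefSeq promoters used here held windows for 36 of the 46 members, 12 of them with more than 1. Those with none in it were ZNF385A, ZNF462, ZNF480, ZNF623, ZNF703, ZNF704, ZNF721, ZNF746, ZNF750 and ZNF76. Capitals mark TGTTCT or its complement AGAACA. The windows are chr1:91021986-91022285 and chr15:42491092-42491391 of GRCh38.p14, both on the minus strand.
ZNF644 promoter: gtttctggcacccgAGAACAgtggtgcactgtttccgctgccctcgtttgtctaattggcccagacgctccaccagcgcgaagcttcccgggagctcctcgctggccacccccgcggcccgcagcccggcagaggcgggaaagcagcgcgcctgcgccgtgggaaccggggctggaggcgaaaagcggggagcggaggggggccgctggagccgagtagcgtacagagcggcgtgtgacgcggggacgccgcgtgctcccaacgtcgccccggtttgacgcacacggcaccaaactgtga
ZNF106 promoter: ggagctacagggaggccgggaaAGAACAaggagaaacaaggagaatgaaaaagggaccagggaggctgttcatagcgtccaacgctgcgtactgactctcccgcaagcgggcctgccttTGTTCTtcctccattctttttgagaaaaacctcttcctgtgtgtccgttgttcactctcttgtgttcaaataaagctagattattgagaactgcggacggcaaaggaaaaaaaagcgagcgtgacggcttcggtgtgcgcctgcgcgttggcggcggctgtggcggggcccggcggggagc
ZNF644 had 1 match and ZNF106 had 2, each in 1 of its 2 windows, and the third window with a match was that of ZNF75A. The listed windows of ZNF57, ZNF652, ZNF281, ZNF692, ZNF687, ZNF148 and ZNF740, which were also called, had none. A match describes the letters of the window alone. The inverted repeat of GNACA around 3 bases was found in 1 member window (ZNF532), against 0.39% of all windows, and the ZNF143 core ACTACAA in 3 (ZNF121 and 2 windows of ZNF32), against 2.77%. Member windows were richer in G and C, with a median of 64% against 58.7%, and in CpG, with a median of 24 against 14.

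Members with known roles in breast cells or chromatin that did not pass the test are described next. ZNF217, a breast cancer oncogene that works with CtBP and CoREST, had 7.14, 7.23 and 7.26 with R5020, against 7.45, 7.40 and 7.17 with EtOH, in siCHD8. In siCt it had 7.52, 7.48 and 7.44 with R5020, against 7.08, 7.37 and 6.91 with EtOH. The groups overlapped in siCHD8 and not in siCt, where R5020 arrays were higher. The changes were -0.13 in siCHD8 and 0.36 in siCt (adjusted p = 0.0657 from limma), with a difference of -0.49 (95% interval -0.87 to -0.12, unadjusted p = 0.0131, adjusted p = 0.49). ZNF462 changed by -0.24 in siCHD8 and -0.33 in siCt (adjusted p = 0.0718), ZNF207 by 0.16 and 0.02, and ZNF410, an activator of the CHD4 gene, by 0.07 and 0.23. When siCt EtOH replicate 3 was left out, the siCt changes were 0.26 for ZNF217 (adjusted p = 0.223), -0.20 for ZNF462 (adjusted p = 0.242), -0.07 for ZNF207 and 0.13 for ZNF410.

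No member passed an adjusted p of 0.05 for the difference between the responses in siCHD8 and siCt, nor did any of the 21214 probe sets. At an unadjusted p under 0.05 there were 7 members, or 15.2%, of which 2 had a higher change in siCHD8 and 5 a lower one. At the same limit it was 9.56% of all probe sets and 10.3% of those with a mean of 6.0 or more. Leaving out siCt EtOH replicate 3 gave 5 members (10.9%, 2 higher and 3 lower), against 8.05% of the brighter probe sets. The lowest p belonged to ZNF703 (0.62), ZNF217 (-0.49), ZNF721 (-0.52), ZNF493 (-0.57), ZNF814 (-0.88) and ZNF644 (-0.49). Without siCt EtOH replicate 3 the difference was -0.69 for ZNF814, -0.41 for ZNF493, -0.50 for ZNF721 and 0.56 for ZNF703, and ZNF814 (unadjusted p = 0.0827), ZNF493 (0.0709) and ZNF644 (0.0674 from limma) no longer passed the unadjusted limit.

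Few members were called for CHD8 knockdown. In the presence of R5020 0 of 46 were called. At an unadjusted p under 0.05 there were 3 (6.52%), against 13.9% of all probe sets and 16.3% of the brighter ones. Of all probe sets tested with R5020, 0.0330% were called higher and 0.156% lower in siCHD8, and among those with a mean of 6.0 or more 0.0636% and 0.254%. With EtOH 1 member was called lower and none higher. The members at an unadjusted p under 0.05 were 10 (21.7%), against 12.1% of all probe sets and 18.5% of the brighter ones. Of all probe sets with EtOH, 0.113% were called higher and 0.179% lower, and among the brighter ones 0.207% and 0.398%. The median change of the members was -0.03 with R5020, against -0.07 for the brighter probe sets, and 0.01 with EtOH, against -0.02. Across the members the changes with R5020 and with EtOH had a Pearson's r of 0.25, against 0.252 across the brighter probe sets.

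**Figure D3:**
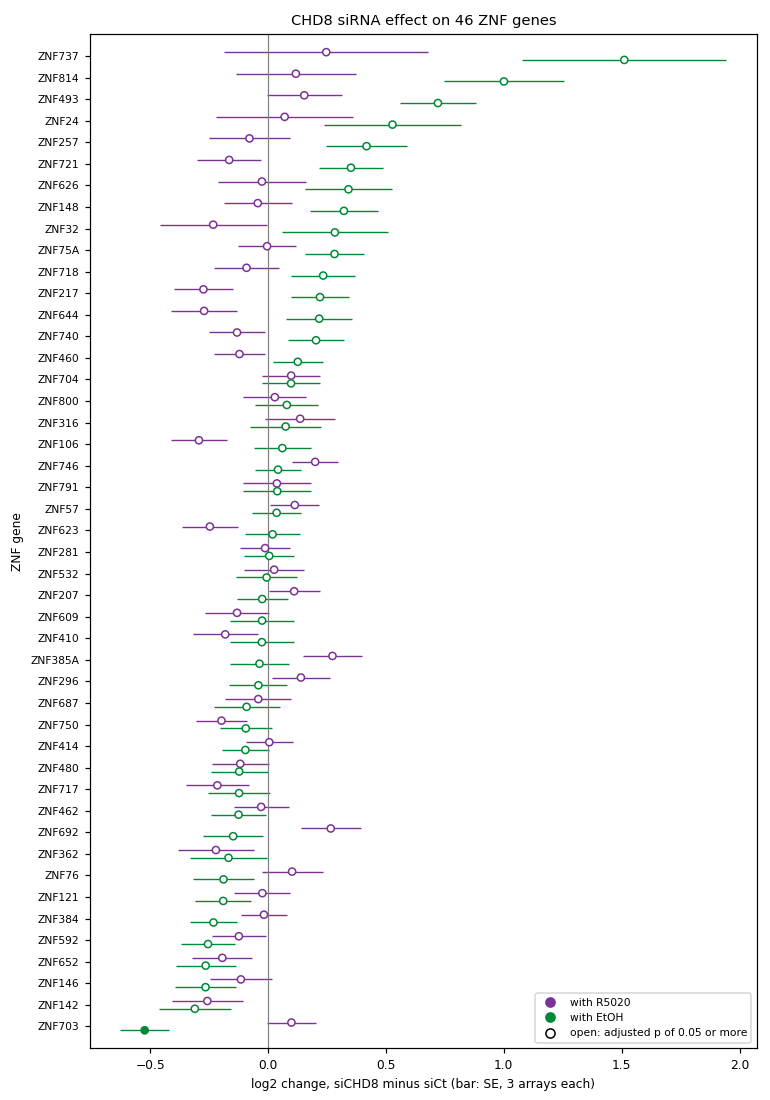
Log2 change with CHD8 knockdown (siCHD8 minus siCt, horizontal axis) of each of the 46 ZNF genes (rows, ordered by the change with EtOH), with R5020 (purple) and with EtOH (green). Bars are the standard error of 3 arrays against 3 and the 1 filled point, ZNF703 with EtOH at -0.52, has an adjusted p under 0.05; changes with R5020 lie between -0.29 and 0.27, and those with EtOH reach 1.51 (ZNF737), on arrays that include siCt EtOH replicate 3.

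The member called was ZNF703, whose values are given above: with EtOH it was lower in siCHD8 than in siCt by -0.52 (SE 0.10, adjusted p = 0.0498 from limma), and with R5020 the change was 0.10 (adjusted p = 0.695). The EtOH call lay at the limit. It was lost with each array left out in turn, at adjusted p between 0.0651 and 0.135, while the change stayed between -0.58 and -0.46. This knockdown comparison and the hormone comparison in siCHD8 use the same siCHD8 EtOH arrays. By value only, the members with the lowest p with R5020 were ZNF106 at -0.29 (adjusted p = 0.294), ZNF217 at -0.27 (adjusted p = 0.344) and ZNF385A at 0.27 (adjusted p = 0.35).

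The largest values upward with EtOH belonged to uncalled genes of chromosome 19. ZNF737 had 7.89, 7.69 and 7.43 in siCHD8 with EtOH, against 6.91, 6.99 and 4.58 in siCt with EtOH, and 7.79, 7.77 and 7.49 in siCHD8 with R5020, against 7.24, 7.58 and 7.49 in siCt with R5020. Only siCt EtOH replicate 3 was far from the rest. The change with EtOH was 1.51 (SE 0.43, adjusted p = 0.155 from limma), and 0.72 without that array (SE 0.15, adjusted p = 0.112). Its R5020 change in siCt, which uses the same array, was 1.28 with it (adjusted p = 0.0635) and 0.49 without it (adjusted p = 0.0597), and it passed without siCt EtOH replicate 1 (adjusted p = 0.027) or 2 (adjusted p = 0.0176). ZNF814 had 7.16, 6.76 and 6.92 in siCHD8 with EtOH, against 5.76, 6.51 and 5.57 in siCt with EtOH, a change of 1.0 (adjusted p = 0.12) and of 0.81 without replicate 3. ZNF493 had 6.65, 6.47 and 6.83 in siCHD8, against 5.89, 6.27 and 5.62 in siCt, both with EtOH, a change of 0.72 (adjusted p = 0.0757) and of 0.57 without replicate 3 (adjusted p = 0.206). It passed without siCt EtOH replicate 2 (adjusted p = 0.0376). With EtOH every siCHD8 array of ZNF737, ZNF814 and ZNF493 was above every siCt array of the same gene. The share of all probe sets with such a separation was not computed.

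ZNF737 and ZNF626 are neighbours on chromosome 19, with no protein-coding gene between them, and ZNF493 and ZNF257 lie further along the same cluster. The promoters of these 4 genes are shown because they show how alike these genes are. Among the 630 pairs of member promoters the 6 pairs between these 4 genes were the 6 most alike, with 77.7% to 83.7% of the 300 bases identical after alignment, against a median of 38.3%. Capitals mark CCAAT boxes, present in 31.4% of member windows and 34.6% of all windows. The windows are chr19:20565732-20566031 (minus strand), chr19:20661522-20661821 (minus), chr19:21396883-21397182 (plus) and chr19:22052234-22052533 (plus) of GRCh38.p14.
ZNF737 promoter: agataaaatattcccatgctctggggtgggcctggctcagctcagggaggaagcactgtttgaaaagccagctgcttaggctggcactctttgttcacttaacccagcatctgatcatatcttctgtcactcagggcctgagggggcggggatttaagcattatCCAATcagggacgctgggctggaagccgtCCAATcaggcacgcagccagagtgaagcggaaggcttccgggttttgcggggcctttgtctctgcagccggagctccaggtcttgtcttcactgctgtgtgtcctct
ZNF626 promoter: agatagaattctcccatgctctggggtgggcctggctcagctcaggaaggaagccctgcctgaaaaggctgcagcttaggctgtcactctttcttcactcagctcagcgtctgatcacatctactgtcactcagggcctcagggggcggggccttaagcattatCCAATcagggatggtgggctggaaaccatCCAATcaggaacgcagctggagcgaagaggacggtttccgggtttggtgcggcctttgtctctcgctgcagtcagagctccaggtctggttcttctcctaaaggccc
ZNF493 promoter: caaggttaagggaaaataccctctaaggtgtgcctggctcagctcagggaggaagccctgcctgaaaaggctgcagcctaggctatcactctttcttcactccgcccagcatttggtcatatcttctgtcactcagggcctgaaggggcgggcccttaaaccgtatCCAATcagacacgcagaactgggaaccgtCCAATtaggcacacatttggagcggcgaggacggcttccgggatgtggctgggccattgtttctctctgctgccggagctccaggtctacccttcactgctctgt
ZNF257 promoter: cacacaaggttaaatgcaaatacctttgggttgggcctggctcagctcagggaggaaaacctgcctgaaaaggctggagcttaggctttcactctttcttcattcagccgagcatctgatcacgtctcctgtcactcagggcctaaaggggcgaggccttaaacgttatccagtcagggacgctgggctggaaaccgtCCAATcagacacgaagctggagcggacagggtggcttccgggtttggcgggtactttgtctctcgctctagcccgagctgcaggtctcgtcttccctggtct
How far the probe sets of these genes read each other's RNA was not tested. ZNF626 had 8.45, 8.44 and 8.49 in siCHD8 with R5020, 8.45, 8.31 and 8.36 in siCHD8 with EtOH, 8.41, 8.47 and 8.58 in siCt with R5020, and 8.29, 8.38 and 7.42 in siCt with EtOH. ZNF257 had 8.69, 8.79 and 8.72 in siCHD8 with R5020, 8.85, 8.84 and 8.83 in siCHD8 with EtOH, 8.76, 8.66 and 9.01 in siCt with R5020, and 8.58, 8.78 and 7.91 in siCt with EtOH. In both, siCt EtOH replicate 3 alone was low, and neither was called in any comparison. A second probe set of ZNF626 rose with R5020 in siCt by 0.46 (adjusted p = 0.0284), with 7.01, 7.04 and 7.33 with R5020 against 6.50, 6.91 and 6.58 with EtOH. Its change was 0.41 without siCt EtOH replicate 3 and did not pass (adjusted p = 0.0889 from limma). With EtOH every siCHD8 array of this probe set was above every siCt array. That knockdown change was 0.52 (adjusted p = 0.112 from limma), and 0.48 without siCt EtOH replicate 3 (adjusted p = 0.247).

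siCt EtOH replicate 3 differed from replicates 1 and 2 of its group by more than 0.5 in 8 members. ZNF737 (-2.37), ZNF24 (-1.50), ZNF32 (-1.02), ZNF626 (-0.92), ZNF257 (-0.77), ZNF814 (-0.56) and ZNF148 (-0.53) were lower and ZNF362 (0.66) higher. The 7 lower ones are 15.2% of the members, and 4 of the 13 on chromosome 19, against 8.06% of all probe sets with a mean of 6.0 or more. The residual SD over the 12 arrays exceeded 0.3 in 4 members, ZNF737, ZNF24, ZNF814 and ZNF32, and in 3.02% of the brighter probe sets. ZNF24, a SCAN domain protein, had 6.16, 6.16 and 6.00 in siCHD8 with R5020, against 6.49, 6.52 and 6.60 in siCHD8 with EtOH, and 6.10, 5.88 and 6.13 in siCt with R5020, against 6.28, 6.74 and 5.01 in siCt with EtOH. Apart from the last value the R5020 arrays were the lower ones. It was not called with all arrays (-0.43 in siCHD8 and 0.03 in siCt), and without that array it fell with R5020 in both, by -0.43 (adjusted p = 0.0368 from limma) and -0.47 (adjusted p = 0.0442).

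**Figure D4:**
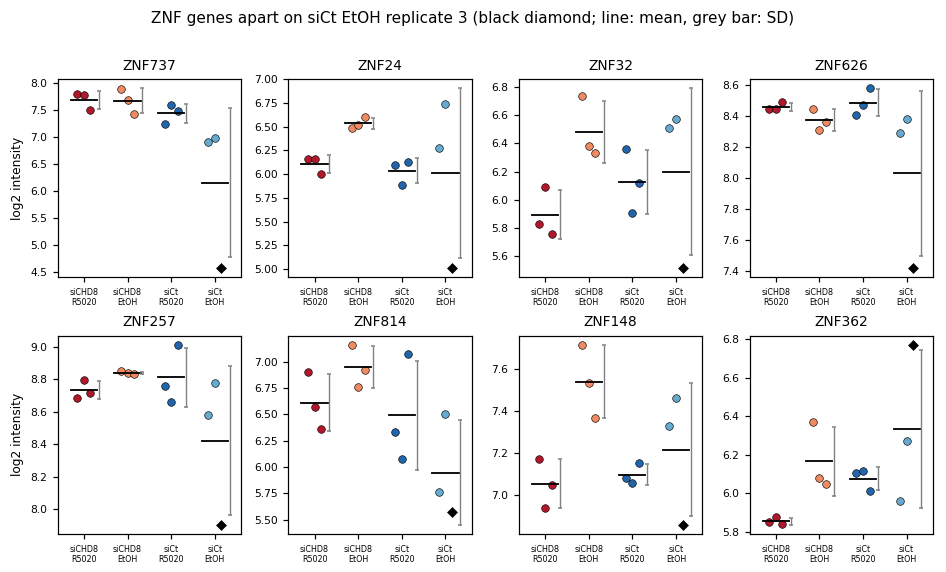
Log2 intensity (vertical axis, scaled for each gene) on each array of the 8 ZNF genes in which siCt EtOH replicate 3 (black diamond) differed by more than 0.5 from the mean of replicates 1 and 2. Dots are arrays, black lines means and grey bars SDs of 3 arrays; for ZNF737 the diamond is at 4.58 and the other 11 arrays at 6.91 or more.

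Without siCt EtOH replicate 3 the members called were 4 higher and 10 lower with R5020 in siCHD8 and 4 higher and 6 lower in siCt. None was called for knockdown with EtOH or R5020. Of the 6289 probe sets with a mean of 6.0 or more, 870 were then higher and 594 lower in siCHD8, and 841 and 410 in siCt. With all 12 arrays these were 768 and 508 in siCHD8, and 992 and 518 in siCt. The median change of the members in siCt without that array was -0.03. The mean of the 13 members on chromosome 19 was 6.93, 6.91 and 6.88 in siCHD8 with R5020, against 6.90, 6.74 and 6.78 in siCHD8 with EtOH, and 6.88, 6.85 and 6.91 in siCt with R5020, against 6.57, 6.76 and 6.28 in siCt with EtOH. The last array was the lowest of all 12. The median R5020 change of these 13 was 0.02 in siCHD8 and 0.19 in siCt, or 0.13 in siCt without that array. For the 33 members on other chromosomes it was -0.13 in siCHD8 and -0.07 in siCt.

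The corepressor machinery on which KRAB proteins depend was read from a list of 32 measured genes. The list had no level limit, and some genes had means below 6.0, such as DNMT3B (4.04) and SUV39H1 (5.90). The brighter probe sets given beside it are thus not matched for level. With R5020, 5 genes of the list were higher and 3 lower in siCHD8 and 7 higher and 3 lower in siCt. For knockdown 0 were called in either treatment. Knockdown counts at an unadjusted p under 0.05 were 5 (15.6%) with R5020 and 7 (21.9%) with EtOH, beside 16.3% and 18.5% of the brighter probe sets. Knockdown changes were below 0 in 25 genes with R5020 (78.1%) and 22 with EtOH (68.8%), beside 65.7% and 53.8% of the brighter probe sets. The hormone counts are 15.6% higher and 9.38% lower in siCHD8 and 21.9% and 9.38% in siCt, beside 12.2% and 8.08%, and 15.8% and 8.24%, of the brighter probe sets. With siCt EtOH replicate 3 left out there were 5 higher and 1 lower in siCt, and 5 and 3 in siCHD8. RBBP7, a histone-binding subunit of HDAC complexes, rose by 0.72 in both (adjusted p = 7.95e-05 in siCHD8 and 6.31e-05 in siCt from limma). The H3K9 methyltransferase gene SUV39H1 rose by 0.78 and 0.59, and TRIM24, a relative of TRIM28, by 0.57 and 0.65. ATF7IP, the cofactor of SETDB1, fell by 0.63 and 0.56, and CHD4, the NuRD remodeler, by 0.44 and 0.48. Without that array ATF7IP changed by -0.45 in siCt and did not pass (adjusted p = 0.0561). TRIM28 itself changed by -0.09 in siCHD8 (adjusted p = 0.804) and -0.28 in siCt (adjusted p = 0.253), and SETDB1 by -0.15 and -0.29, none of them called. The siCt changes without that array were -0.11 for TRIM28 and -0.15 for SETDB1.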

How the data were processed

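RNA of T47D-MTVL cells was read on Human Gene 1.0 ST arrays (Affymetrix), 1 array a sample. The deposited values, log2 intensities of probe sets, were extracted by the authors with the Command Console software, normalized with RMA (background correction, quantile normalization and probe summary) and processed with oneChannelGUI (versions not given in the sources used here). RMA pulls arrays to 1 distribution, so a shift shared by all genes would not show. Of 33297 probe sets, 21214 with at least 1 gene symbol in the platform annotation were tested, and 0 columns were left unused. All 46 members matched RefSeq for their chromosome, and 36 had a promoter in the RefSeq table used (assembly GRCh38.p14).

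All 12 arrays entered 1 linear model with a mean for each group (limma 3.58.1 under R 4.3.3, moderated by eBayes). P-values were adjusted by Benjamini-Hochberg over every probe set tested, and a gene was called at an adjusted p under 0.05. Precision was limited by the small number of arrays, with a median SE over the members of 0.13. The fit was tested on simulated data. Members, lists and named genes were chosen with earlier results of these data known. Named genes are those called for the hormone or, with EtOH, the knockdown, those of lowest p where few passed, the 6 of lowest p for the difference, the 5 brightest, those at the level limit and those with listed known roles; ZNF740, ZNF24 and others outside it were named after their values were seen. Alternatives were median centring, repeated quantile normalization, a filter on dim probe sets, all probe sets, a trended and robust variance, a fit of the compared groups alone, a replicate block, other member levels (5.5 and 7.0), the mean of all probe sets of a gene, a stricter call (adjusted p under 0.01 and fold over 1.5) and each array left out; a fit with neither siCt EtOH replicate 3 nor siCHD8 EtOH replicate 1 was chosen after seeing the data, as was leaving out siCt EtOH replicate 3 for genes that are no members. Probe sets with several symbols were left out, 39 of which name a ZNF gene. Promoter windows were aligned with Biopython 1.88 and figures were made in matplotlib 3.10.9 (Python 3.11.15, pandas 2.3.3).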

Additional observations from a re-analysis of the deposited data

How the results depend on the processing

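With 3 arrays a group, changes near 0.4 on the log2 scale lie at the limit of what could be called, and calls there moved with single arrays. Main values were 10 members called for R5020 in siCHD8 and 10 in siCt, 1 and 0 for knockdown with EtOH and with R5020, and 0 for the difference. Counts in siCt were 16 with dim probe sets left out and 6 under the stricter rule, which also gave 6 in siCHD8. The knockdown count with EtOH was 3 with dim probe sets left out, 2 with a trended and robust variance, and 0 with median centring, all probe sets, the replicate block, the compared groups alone, the stricter rule, or 2 arrays left out together. With 1 array left out, counts were 7 to 14 in siCHD8 (14 without siCt EtOH replicate 3), 8 to 16 in siCt (16 without siCt EtOH replicate 2, 10 of them higher) and 0 to 1 for knockdown with EtOH (1 without siCt EtOH replicate 2, ZNF493). The median change in siCt was 0.013; it was 0.078 with median centring, -0.057 with quantile normalization, 0.362 for members at 7.0 or more, -0.032 to 0.085 with 1 array left out and -0.032 with 2 left out. In siCHD8 it was -0.11, with -0.16 to -0.068 when 1 array was left out. For knockdown with R5020 it was -0.027, with -0.109 under median centring and 0.025 under quantile normalization. The cause of these shifts was not tested. Replicate numbers are shared between groups, but same-numbered arrays did not deviate together (r between -0.247 and 0.0304). The highest r, 0.254, was that of siCHD8 EtOH replicate 1 with siCt EtOH replicate 2. With 3 arrays a group these values cannot show whether arrays were paired. With the replicate block 10 members were called in siCHD8 (4 higher, 6 lower) and 10 in siCt (6 higher, 4 lower). The calls of ZNF687 in siCt and of ZNF148 and ZNF740 in siCHD8 were lost under median centring (adjusted p = 0.0832, 0.0659 and 0.0536 from limma) and with all probe sets tested (0.0824, 0.0965 and 0.0697), and median centring split the 10 calls in siCt into 6 higher and 4 lower, against 5 and 5. ZNF687 was also lost under the block (0.0576). CHD8 itself passed in 7 of 19 alternatives with R5020 (lowest adjusted p = 0.0218) and in 3 of 19 with EtOH (lowest 0.0413). No called change of a named gene turned direction under the alternatives run. Uncalled changes did without siCt EtOH replicate 3, among them those in siCt of ZNF24 (0.03, then -0.47), ZNF493 (0.07, then -0.08) and ZNF207 (0.02, then -0.07). Some that turned were not near 0. The difference of hormone effects of ZNF24 was -0.46, then 0.04, and the knockdown change of ZNF32 with EtOH was 0.28, then -0.06.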

Other observations

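Of the 418 ZNF genes with a mean below 6.0, 6 were higher (1.44%) and 22 lower (5.26%) with R5020 in siCHD8, and 35 higher (8.37%) and 14 lower (3.35%) in siCt. Of all probe sets tested it was 6.04% and 5.43% in siCHD8, and 8.10% and 6.00% in siCt, and the shares were near or below these. That background is not matched for level. It includes the probe sets with a mean of 6.0 or more, of which 12.2% and 8.08%, and 15.8% and 8.24%, were called. Shares of the dim probe sets alone were not computed, so whether these ZNF genes differ from them was not tested. Without siCt EtOH replicate 3, 7 of the 418 were higher and 24 lower in siCHD8, and 18 and 11 in siCt. Of all 21214 probe sets tested it was then 1432 and 1300 in siCHD8, and 1420 and 934 in siCt. The genes named here were chosen after their values were seen. ZNF239 had 4.57, 4.48 and 4.58 with R5020, against 5.80, 5.77 and 5.53 with EtOH, in siCHD8, and 4.35, 4.24 and 4.09 with R5020, against 5.39, 5.58 and 5.08 with EtOH, in siCt. The treatments were clear of each other, with changes of -1.16 and -1.13. ZNF485, which lies on chromosome 10 as does ZNF239, fell by 1.32 in siCHD8 and 0.96 in siCt. ZNF761 rose by 0.84 in siCHD8 and 1.06 in siCt. ZNF91, a KRAB repressor of retrotransposons, had 6.41, 6.25 and 5.87 in siCHD8 with EtOH, against 5.41, 5.60 and 5.5 in siCt with EtOH, a change of 0.67 (adjusted p = 0.048 from limma); without siCt EtOH replicate 3 none of the 418 was called for knockdown with EtOH.

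Of other zinc finger families, 12 ZBTB genes had a mean of 6.0 or more. In siCHD8 ZBTB42 (-1.07) and ZBTB21 (-0.51) fell with R5020. In siCt ZBTB42 (-1.13), ZBTB40 (-0.74) and ZBTB7A (-0.55) fell and ZBTB11 (0.46) rose. The calls are 0% higher and 16.7% lower in siCHD8, and 8.33% higher and 25% lower in siCt. Of the brighter probe sets it was 12.2% and 8.08% in siCHD8, and 15.8% and 8.24% in siCt. With 12 genes these are differences of a few genes that were not tested. Without siCt EtOH replicate 3 the changes in siCt were -0.80 for ZBTB42, -0.76 for ZBTB40, 0.50 for ZBTB11 and -0.34 for ZBTB7A, which no longer passed (adjusted p = 0.0628 from limma). ZFP36, which encodes the mRNA decay factor tristetraprolin and carries fingers of another type, rose by 0.76 in siCHD8 and 0.78 in siCt.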
